A study of Homo sapiens with 12 samples.

Results

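RAB genes encode small GTPases of the RAS superfamily, and 63 of the 34688 rows of the gene table carry a RAB symbol, that is the letters RAB, a number and at most 1 further letter and digit. Their expression was compared in 6 cell populations, CD133+ and CD133- cells sorted from the established gastric cancer cell lines KATO-III, SNU-216 and SNU-601. CD133, the product of PROM1, is a glycoprotein of the cell surface, and the sort kept the 10% of cells brightest for it as CD133+ and the 6% dimmest as CD133-. The cells were grown in RPMI1640 with calf serum, and the labels name no treatment other than the sort. Each population was hybridised on 2 Illumina HT-12 v3 arrays. Every line is 1 line, so a difference between lines belongs to these cultures. It is not stated whether the 2 arrays come from separate sorts, so the p-values measure the spread between these arrays, which may be technical. The design text names SNU201 where the sample labels have SNU-216, and the labels are followed here.

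RAB proteins switch between a GTP-bound form, which sits on a membrane and recruits effectors, and a GDP-bound form, which is drawn back into the cytosol. Each marks certain membranes and helps to direct the budding, transport, tethering or fusion of their vesicles. Endocytic RABs act on early, recycling and late endosomes, secretory RABs act between the endoplasmic reticulum, the Golgi and the plasma membrane, and others serve lysosome-related organelles or cilia. In gastric epithelium, RAB11 family members are known for the recycling of membrane carrying the proton pump, and RAB25 and RAB17 are known as RABs of epithelial cells.

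The deposited values are background-subtracted intensities on a linear scale. Values under 32.7, called the floor here, were treated as not distinguishable from background and were set to the floor before log2 was taken, so that values at the floor have no order. A population with both arrays at the floor also shows no spread. The SEs and p-values of genes with such populations therefore tend to be too small. Each array had 16320 to 16474 genes over the floor, among them 41 to 45 of the 63 RAB genes, and the 2 arrays of a population correlated at r = 0.993 to 0.995. Testing was limited to genes that exceeded the floor on 2 or more arrays, which left 20147 genes and 48 RAB genes (22 endocytic, 19 secretory and 7 others). Of the 15 RAB genes not tested, 13 stayed at the floor on all 12 arrays and RAB14 and RAB6C exceeded it on 1 array each. The epithelial markers EPCAM, TACSTD1, CDH1, KRT8, KRT18 and KRT19 lay above the floor on all 12 arrays, and PTPRC, CD3E, PECAM1, CDH5, VWF, DCN and PDGFRB on none. Of the other markers of leukocytes and fibroblasts, COL1A2 lay above it on 1 array, COL1A1 on 7, LYZ on 8 and CD79A on 9. Their levels differed. LYZ was bright in KATO-III and SNU-601, from 4483 to 10021, and at the floor in SNU-216. CD79A reached at most 60.5, COL1A2 38.4 and COL1A1 196. PROM1, the sorted gene, was brighter on every CD133+ array than on the CD133- arrays of its line.

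The RAB genes differed most between the 3 cell lines, and the largest differences were in genes above the floor in one line and at it in another. With the mean of both fractions of a line compared by limma and an adjusted p of 0.05, 39 of the 48 RAB genes differed between KATO-III and SNU-216 (19 higher and 20 lower in KATO-III), beside 62.0% of all genes tested (30.3% higher and 31.7% lower). Between KATO-III and SNU-601 37 differed (14 higher and 23 lower in KATO-III), beside 58.6% of all genes (28.7% and 29.9%). Between SNU-216 and SNU-601 39 differed (15 higher and 24 lower in SNU-216), beside 56.5% (29.4% and 27.1%). By size, 35 RAB genes were called and at least 1.5-fold apart in at least 1 pair of lines, beside 56.6% of all genes. In addition, 9 RAB genes lay above the floor on all 4 arrays of 1 line and on none of another, beside 11.2% of all genes. These were RAB32, RAB31, RAB7L1, RAB38, RAB15, RAB30, RAB36, RAB18 and RAB7B.

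RAB32, RAB38 and RAB7L1 (RAB29 in current nomenclature) form a RAB subfamily known for lysosome-related organelles, such as melanosomes, and for the lysosome. RAB32 measured 1713 and 1900.0 on the CD133+ and 1639.7 and 1738 on the CD133- arrays of KATO-III, 8230.4 and 8043 on the CD133+ and 7814 and 7859 on the CD133- arrays of SNU-216, and between -29.3 and -10.5 (at the floor) on the 4 arrays of SNU-601. Expression was thus highest in SNU-216, intermediate in KATO-III and at the floor in SNU-601, with no overlap between the lines. RAB32 was at least 244-fold higher in SNU-216 than in SNU-601 (adjusted p = 6.53e-14) and 4.58-fold higher in SNU-216 than in KATO-III (log2 difference -2.19 (SE 0.04, adjusted p = 1.20e-10)). RAB38 measured 1672 and 1536 on the CD133+ and 842 and 874 on the CD133- arrays of KATO-III, between -7.04 and 20.2 (at the floor) on the 4 arrays of SNU-216, and 816 and 866 on the CD133+ and 661 and 659 on the CD133- arrays of SNU-601. The line at the floor was SNU-216, and the CD133+ arrays of KATO-III were the brightest of the 12. RAB38 was at least 35.9-fold higher in KATO-III and at least 22.8-fold higher in SNU-601 than in SNU-216 (adjusted p = 2.13e-12 and 5.09e-12). RAB7L1 measured between -45.0 and -24.7 (at the floor) on the 4 arrays of KATO-III, 1139.8 and 1246 on the CD133+ and 1414 and 1299 on the CD133- arrays of SNU-216, and 656 and 664 on the CD133+ and 553 and 508 on the CD133- arrays of SNU-601. Here KATO-III was at the floor, and SNU-216 was above SNU-601 on every array. RAB7L1 was at least 38.9-fold higher in SNU-216 and at least 18.1-fold higher in SNU-601 than in KATO-III (adjusted p = 3.77e-12 and 4.19e-11). Each of the 3 lines was therefore at the floor for a different member of the subfamily and above it for the other members.

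**Figure D1:**
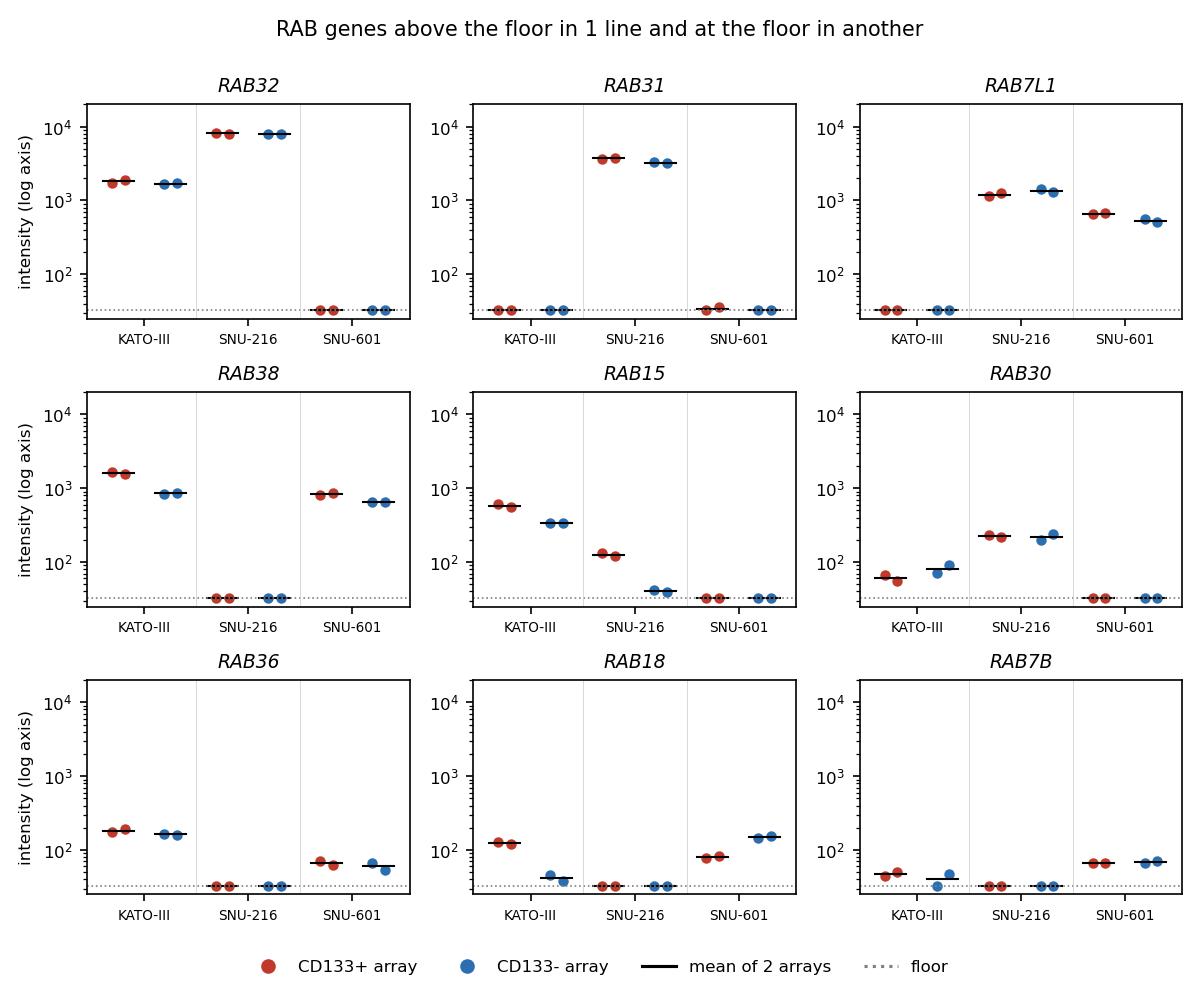
Intensity (log axis) on each of the 12 arrays for the 9 RAB genes above the floor (dotted line, 32.7) in 1 line and at it in another, with red points for CD133+, blue points for CD133- arrays, black bars for the mean of 2 arrays, and values under the floor drawn at it. RAB32 is at the floor in SNU-601, RAB7L1 in KATO-III and RAB38 in SNU-216, while RAB31 is well above the floor in SNU-216 alone.

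RAB31, an early endosomal and trans-Golgi RAB close to RAB22A, stood out in the same way. RAB31 measured between -6.61 and 14.2 (at the floor) on the 4 arrays of KATO-III, 3677 and 3714 on the CD133+ and 3275 and 3193 on the CD133- arrays of SNU-216, and 25.8 and 35.8 on the CD133+ and 2.45 and 10.1 on the CD133- arrays of SNU-601. SNU-216 was far above the floor on all 4 arrays, and of the other 8 arrays 1, of SNU-601 CD133+ cells, exceeded it slightly. RAB31 was at least 106-fold higher in SNU-216 than in KATO-III (adjusted p = 1.88e-12) and at least 103-fold higher than in SNU-601 (adjusted p = 1.94e-12), the latter with 3 of 4 SNU-601 arrays at the floor. RAB40B, which has a SOCS box and joins ubiquitin ligase complexes, was measured in every line but was much dimmer in SNU-216. RAB40B measured 4951 and 5063 on the CD133+ and 3951 and 3817 on the CD133- arrays of KATO-III, 193 and 224 on the CD133+ and 187 and 154 on the CD133- arrays of SNU-216, and 3114 and 3315 on the CD133+ and 2756 and 2984 on the CD133- arrays of SNU-601. The ranges of the 3 lines did not overlap. RAB40B was 23.5-fold higher in KATO-III and 16.2-fold higher in SNU-601 than in SNU-216 (adjusted p = 2.66e-11 and 6.27e-11).

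Promoter sequences are shown for 4 of the 5 genes with the largest differences between lines, RAB32, RAB31, RAB7L1 and RAB40B, as the regions at the start of genes with these patterns. They come from RefSeq (GRCh38.p14) and run 5′ to 3′ on the gene's strand from 250 bases before to 50 bases after the annotated start, with each CG dinucleotide in capitals. A RefSeq promoter was matched for 48 of the 63 RAB genes, 1 of them under its current symbol, and RAB38 is not among them. The positions are chr6:146543583-146543882, forward strand, for RAB32, chr18:9708051-9708350, forward strand, for RAB31, chr1:205775433-205775732, reverse strand, for RAB7L1 and chr17:82698649-82698948, reverse strand, for RAB40B.
RAB32: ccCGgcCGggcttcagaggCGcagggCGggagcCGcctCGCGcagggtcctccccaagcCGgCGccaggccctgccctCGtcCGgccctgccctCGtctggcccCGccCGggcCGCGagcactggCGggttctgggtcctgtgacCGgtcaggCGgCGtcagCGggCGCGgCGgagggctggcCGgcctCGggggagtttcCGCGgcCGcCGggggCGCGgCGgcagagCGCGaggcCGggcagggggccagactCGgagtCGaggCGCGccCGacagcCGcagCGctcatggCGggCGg
RAB31: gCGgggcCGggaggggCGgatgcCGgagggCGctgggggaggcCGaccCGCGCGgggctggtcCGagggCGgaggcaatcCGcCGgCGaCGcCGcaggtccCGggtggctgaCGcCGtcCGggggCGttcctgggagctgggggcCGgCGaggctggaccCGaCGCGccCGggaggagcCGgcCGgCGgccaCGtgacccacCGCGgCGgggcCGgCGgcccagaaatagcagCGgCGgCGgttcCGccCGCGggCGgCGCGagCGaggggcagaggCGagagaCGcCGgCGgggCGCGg
RAB7L1: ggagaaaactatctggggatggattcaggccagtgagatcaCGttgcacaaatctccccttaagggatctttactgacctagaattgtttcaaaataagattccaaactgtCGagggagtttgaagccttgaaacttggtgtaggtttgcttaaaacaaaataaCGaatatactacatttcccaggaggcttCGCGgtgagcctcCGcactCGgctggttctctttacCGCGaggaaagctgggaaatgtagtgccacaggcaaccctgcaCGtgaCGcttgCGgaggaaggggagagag
RAB40B: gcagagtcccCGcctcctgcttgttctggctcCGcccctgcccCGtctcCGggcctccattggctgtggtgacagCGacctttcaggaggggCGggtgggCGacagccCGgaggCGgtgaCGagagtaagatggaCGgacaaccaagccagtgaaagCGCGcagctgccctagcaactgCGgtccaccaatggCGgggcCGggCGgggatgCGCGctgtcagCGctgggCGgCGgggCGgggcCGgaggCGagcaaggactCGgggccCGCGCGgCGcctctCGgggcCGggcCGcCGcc
These promoters hold 45 CG dinucleotides for RAB32, 52 for RAB31, 12 for RAB7L1 and 34 for RAB40B, and the ratio of observed to expected CG was 0.920, 1.07, 0.697 and 0.843. Over the 35116 promoters of the table the median was 14 CG dinucleotides at a ratio of 0.579, and over the 39 tested RAB genes with a promoter it was 29 at a ratio of 0.833. The letters GGGCGG, searched on both strands, were in 82.1% of the promoters of these 39 tested RAB genes and in 45.0% of all. CACGTG was in 15.4% and 7.26%, and TATAAA in 2.56% and 11.5%. For the 9 matched RAB genes that were not tested the shares were 55.6% for GGGCGG, 0% for CACGTG and 22.2% for TATAAA. Their median was 15 CG dinucleotides (ratio 0.713). The promoters of the whole table were not limited to genes above the floor, so the shares do not separate RAB genes from expressed genes. CACGTG occurs in the RAB31 and RAB7L1 promoters shown. The 6 matched genes that were above the floor in 1 line and at it in another had a median of 19 CG dinucleotides (ratio 0.721), and the other 33 tested RAB genes 30 (ratio 0.842). Of the tested RAB genes, RAB7B, RAB42, RAB17 and RAB25 had the fewest, 4, 7, 7 and 9, at ratios of 0.186, 0.278, 0.313 and 0.363. These are descriptions of sequence, and methylation or factor binding was not measured.

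The remaining genes at the floor in a line were dimmer. RAB15 measured 609 and 555 on the CD133+ and 341 and 343 on the CD133- arrays of KATO-III, 131 and 121 on the CD133+ and 41.3 and 39.1 on the CD133- arrays of SNU-216, and between -23.9 and -16.5 (at the floor) on the 4 arrays of SNU-601. RAB15, a RAB of early and recycling endosomes, was at least 13.6-fold higher in KATO-III than in SNU-601 (adjusted p = 5.02e-10), and its CD133+ arrays were brighter than its CD133- arrays in both lines where it was measured. RAB36, a Golgi RAB, was at the floor in SNU-216 and ranged from 160.0 to 192 in KATO-III and from 54.3 to 71.4 in SNU-601. RAB30, also of the Golgi, was at the floor in SNU-601 and ranged from 196 to 238 in SNU-216. RAB7B, a late endosomal RAB, was at the floor in SNU-216, between 66.9 and 69.9 in SNU-601 and close to the floor in KATO-III.

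Several RABs of exocytosis and of epithelial transport also separated the lines. RAB17, which acts in recycling and transcytosis in polarised epithelial cells, was 8.69-fold higher in KATO-III and 16.01-fold higher in SNU-601 than in SNU-216 (adjusted p = 8.09e-10 and 1.50e-10). RAB3B, a RAB of regulated secretory vesicles, was brightest in SNU-216, the line where RAB17 was dimmest, with SNU-216 4.45-fold above SNU-601 (adjusted p = 4.74e-09) and above KATO-III, where it was at or near the floor. RAB26, known for secretory granules, was 6.87-fold higher in SNU-216 than in KATO-III (adjusted p = 3.90e-08). By class, 18 of 22 endocytic, 14 of 19 secretory and 7 of 7 other RAB genes differed between KATO-III and SNU-216, 18, 14 and 5 between KATO-III and SNU-601, and 20, 13 and 6 between SNU-216 and SNU-601. Of all genes tested, 62.0%, 58.6% and 56.5% differed in these pairs. The median absolute log2 difference of the 48 RAB genes was 0.67, 0.42 and 0.76 in the 3 pairs, beside 0.44, 0.38 and 0.37 over all genes tested. Of the 115 RAB calls between lines, 108 held when any 1 array was left out. The others were RAB1B, RAB42 and RAB5B between KATO-III and SNU-216 (adjusted p up to 0.0509, 0.129 and 0.139), RAB10 and RAB6A between KATO-III and SNU-601 (up to 0.0861 and 0.0759), and RAB23 and RAB5A between SNU-216 and SNU-601 (up to 0.055 and 0.0886).

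**Figure D2:**
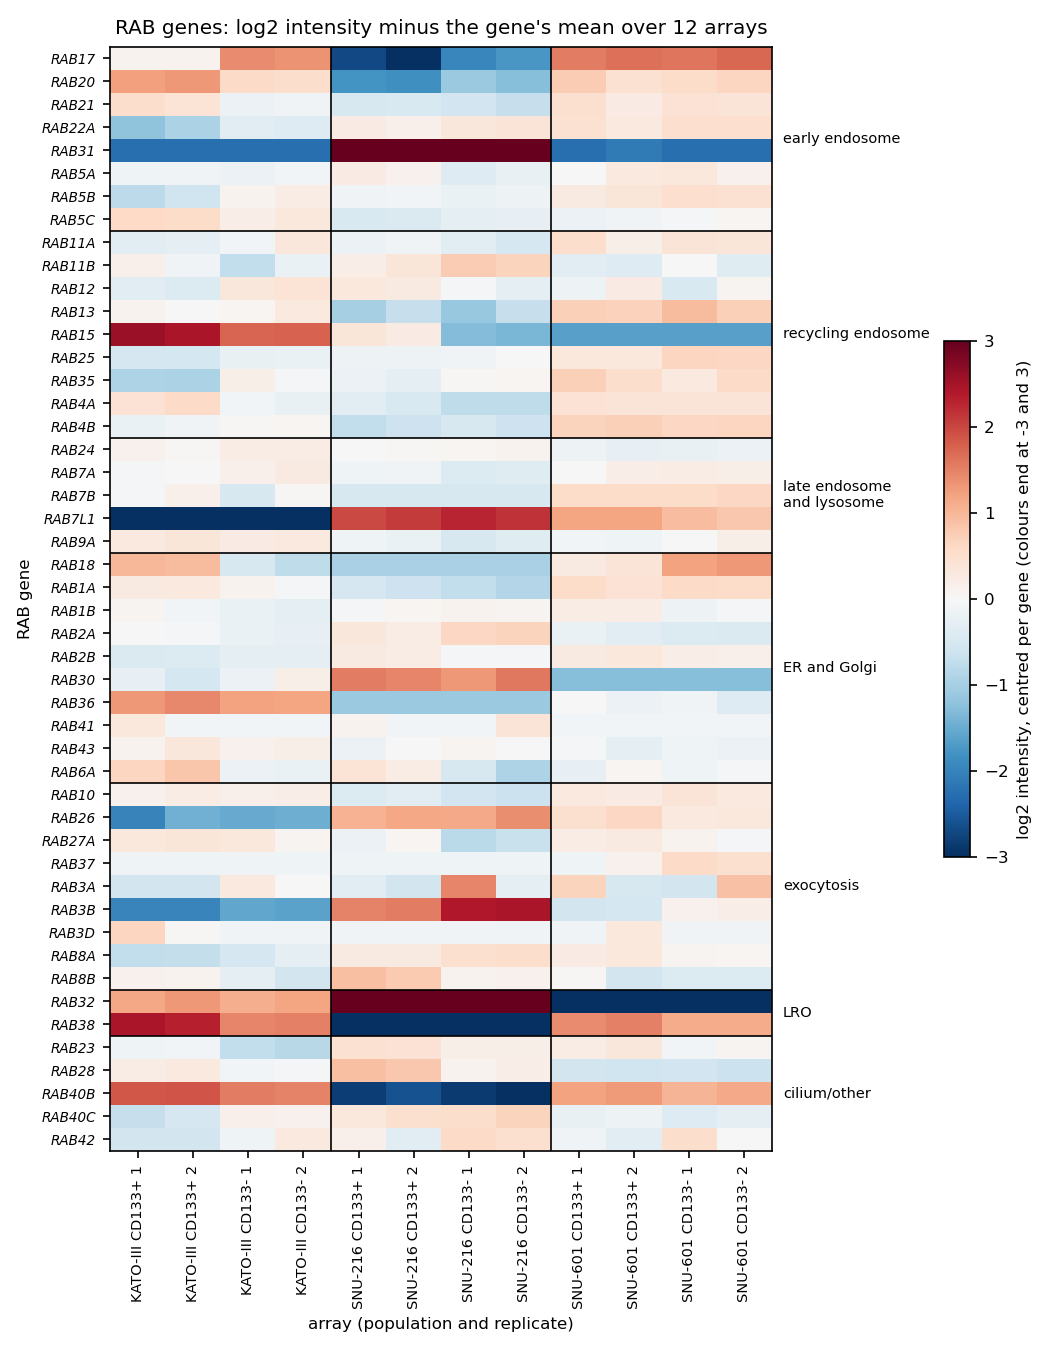
Log2 intensity of the 48 tested RAB genes (y axis, grouped by role, LRO for lysosome-related organelles) on the 12 arrays (x axis), each gene minus its mean over the arrays, in red above and blue below that mean. The columns fall into 3 blocks by line, and the strongest colours include RAB31, RAB32, RAB38, RAB7L1, RAB40B, RAB17 and RAB3B.

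The study's question was which genes go with CD133 on the cell surface, so CD133+ and CD133- cells were compared within each line. KATO-III had 27 RAB genes called (15 higher and 12 lower in CD133+ cells), beside 39.3% of all genes tested (18.7% higher and 20.6% lower). SNU-216 had 19 (13 higher and 6 lower), beside 28.6% (14.6% higher and 14.0% lower), and SNU-601 had 8 (4 higher and 4 lower), beside 16.4% (8.59% higher and 7.78% lower). Called and at least 1.5-fold apart were 14, 8 and 2, beside 20.7%, 12.1% and 5.16% of all genes. In all, 33 RAB genes were called in at least 1 line, beside 56.2% of all genes. The median absolute log2 change of the RAB genes was 0.33, 0.24 and 0.14 in KATO-III, SNU-216 and SNU-601, beside 0.29, 0.23 and 0.18 over all genes. By class, 13 of 22 endocytic, 9 of 19 secretory and 5 of 7 other RABs were called in KATO-III, 8, 9 and 2 in SNU-216, and 2, 4 and 2 in SNU-601. The median log2 change of the endocytic RABs was -0.06, 0.04 and -0.03, and that of the secretory RABs 0.14, 0.00 and 0.00. Of the 54 calls within lines, 31 held when any 1 array was left out, 18 of 27 in KATO-III, 10 of 19 in SNU-216 and 3 of 8 in SNU-601. With the spread estimated from the 4 arrays of the line alone, SNU-216 had 7 higher and 3 lower calls and SNU-601 had 0.

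**Figure D3:**
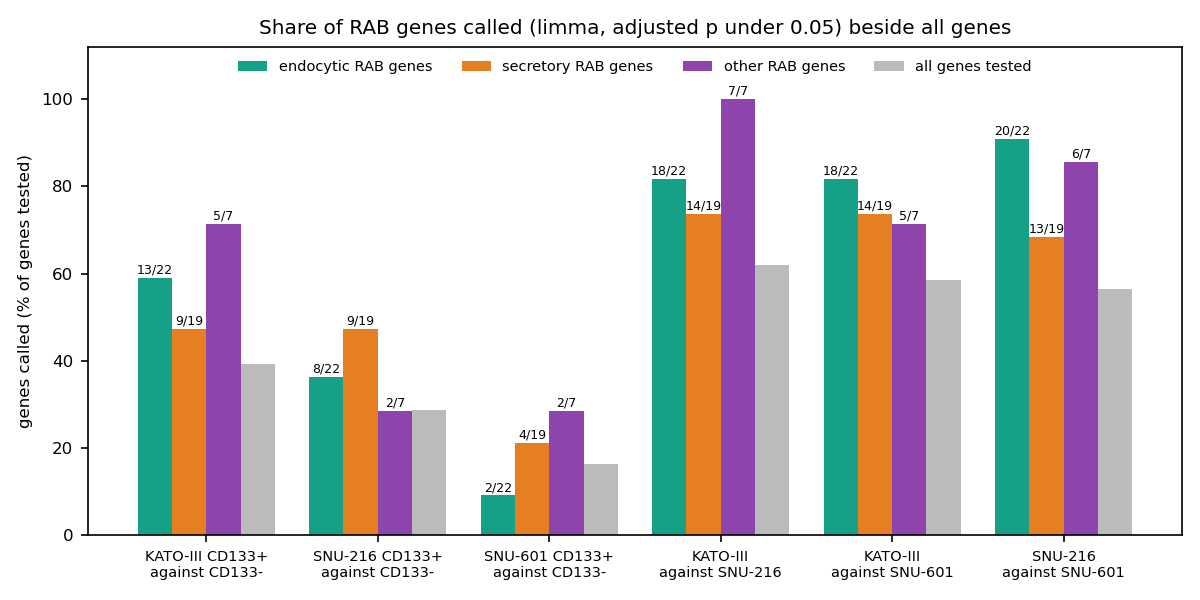
Percent of genes called at an adjusted p of 0.05 (y axis) in the 3 comparisons of fractions and the 3 comparisons of lines (x axis), for endocytic (green), secretory (orange) and other (purple) RAB genes, with the number called of those tested above each bar, and for all genes tested (grey). Over the 3 classes together the RAB share ranges from 16.7% in SNU-601, beside 16.4% of all genes, to 81.3% between KATO-III and SNU-216 and between SNU-216 and SNU-601, beside 62.0% and 56.5%.

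Among the early endosomal RABs, RAB17 fell in CD133+ cells of 2 lines. RAB17 measured 1571 and 1573 on the CD133+ and 3883 and 3742 on the CD133- arrays of KATO-III, 222 and 174 on the CD133+ and 375 and 435 on the CD133- arrays of SNU-216, and 4254 and 4579.6 on the CD133+ and 4449 and 4781 on the CD133- arrays of SNU-601. In KATO-III both CD133+ arrays were far below both CD133- arrays, in SNU-216 the fractions were also apart at a lower level, and in SNU-601 they overlapped. Its log2 change was -1.28 (SE 0.11, adjusted p = 3.56e-05) in KATO-III, -1.04 (SE 0.11, adjusted p = 0.000212) in SNU-216 and -0.06 (SE 0.11, adjusted p = 0.835) in SNU-601, and it differed between the lines (adjusted p = 0.000673). The 3 RAB5 genes, which control fusion of early endosomes, did not move together. RAB5B measured 3700.1 and 4206 on the CD133+ and 6951 and 7530.1 on the CD133- arrays of KATO-III, 5996 and 6048 on the CD133+ and 5552 and 5755 on the CD133- arrays of SNU-216, and 7736 and 8253 on the CD133+ and 9063 and 8872 on the CD133- arrays of SNU-601. RAB5B was lower in CD133+ cells of KATO-III, by a log2 change of -0.87 (SE 0.07, adjusted p = 1.65e-05), with 0.09 (adjusted p = 0.386) in SNU-216 and -0.17 (adjusted p = 0.137) in SNU-601. RAB5C rose in CD133+ cells of KATO-III, 0.33 (adjusted p = 0.000885), and fell in SNU-216, -0.19 (adjusted p = 0.019). RAB5A was called in SNU-216 alone, 0.48 (adjusted p = 0.00866). The SNU-216 calls of RAB5C and RAB5A were lost without some single SNU-216 arrays, any of the 4 for RAB5C and replicate 1 of either fraction for RAB5A (adjusted p up to 0.0813 and 0.0711). The test of a difference between lines was passed by RAB5A, RAB5B and RAB5C (adjusted p = 0.0249, 0.000163 and 0.000674). RAB20, which is known on phagosomes and endosomes, had opposite calls too, with 0.72 (adjusted p = 0.00059) in KATO-III and -0.61 (adjusted p = 0.00221) in SNU-216. RAB21, an early endosomal RAB that binds integrins, rose in KATO-III, 0.62 (adjusted p = 0.000307), and RAB22A fell there, -0.71 (adjusted p = 0.000176).

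**Figure D4:**
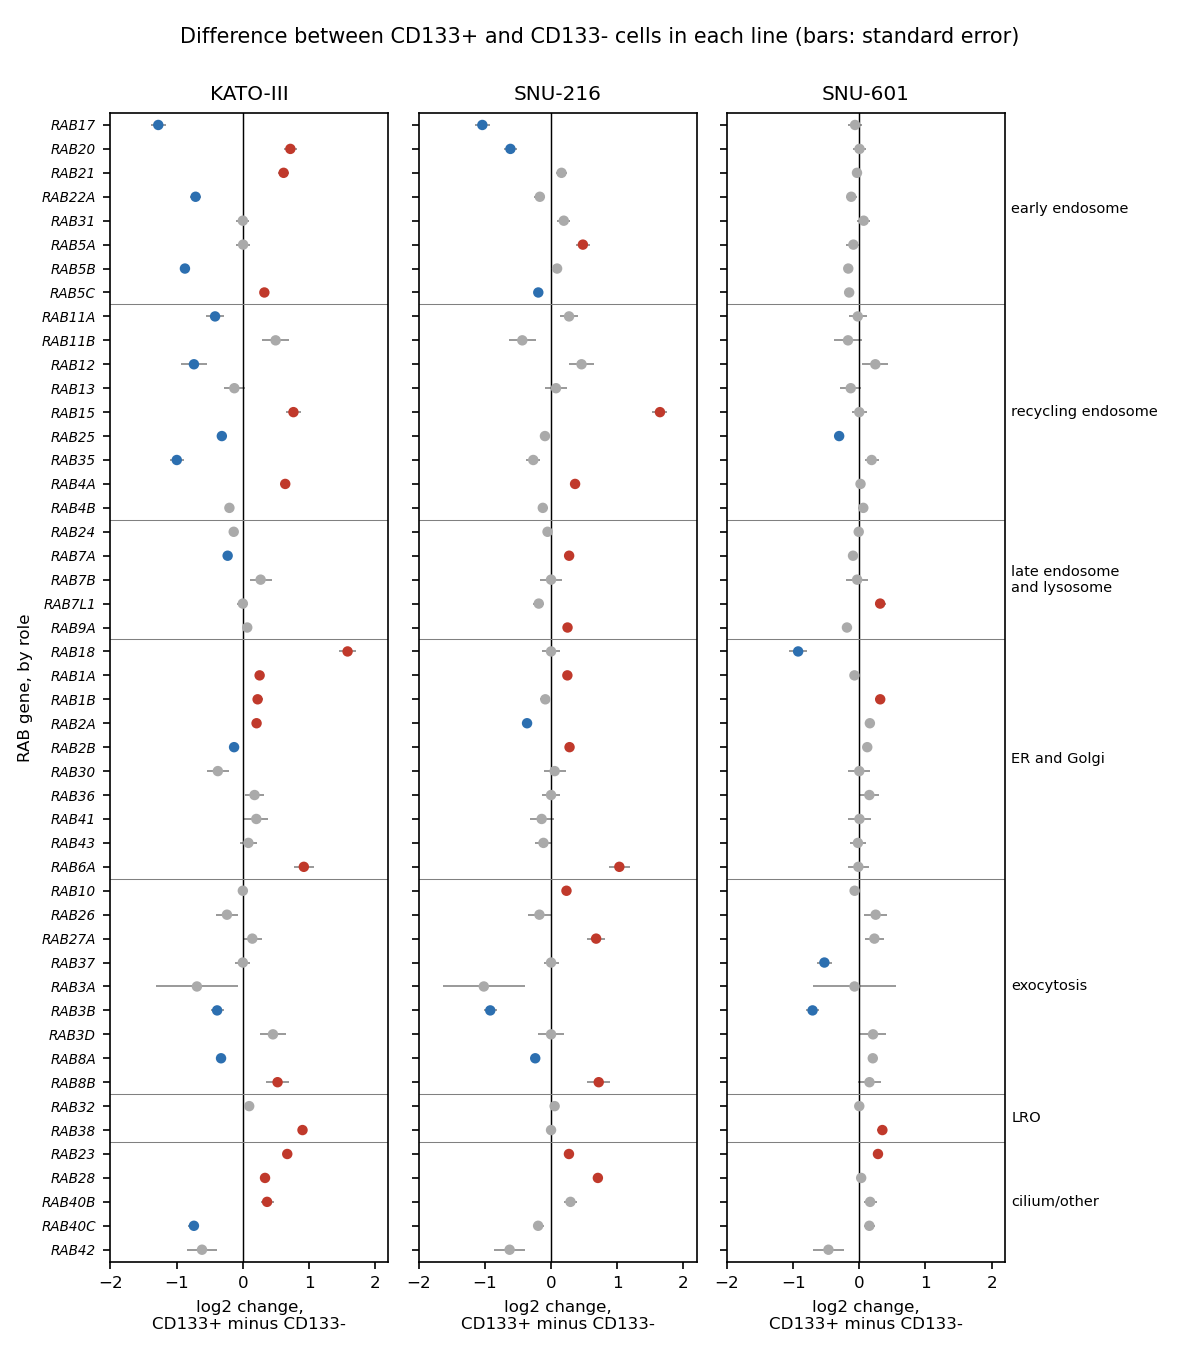
Log2 change between CD133+ and CD133- cells (x axis, bars for the standard error) of the 48 tested RAB genes (y axis, by role) in KATO-III, SNU-216 and SNU-601, red where called higher in CD133+, blue where called lower and grey where not called. The widest spread is in KATO-III, from -1.28 for RAB17 to 1.58 for RAB18, and most points of SNU-601 lie near 0.

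Recycling RABs changed in different directions. RAB15 rose in CD133+ cells of KATO-III and SNU-216, with the values given above, by log2 changes of 0.76 (SE 0.11, adjusted p = 0.00069) and 1.65 (SE 0.11, adjusted p = 1.92e-05), and was at the floor on every SNU-601 array, so that no change could be measured there. RAB35, which acts in fast recycling from the early endosome, fell in KATO-III. RAB35 measured 1004 and 996 on the CD133+ and 2148 and 1857 on the CD133- arrays of KATO-III, 1697 and 1587 on the CD133+ and 1962 and 1993 on the CD133- arrays of SNU-216, and 3150.2 and 2754 on the CD133+ and 2351 and 2847 on the CD133- arrays of SNU-601. Its change was -0.998 (SE 0.10, adjusted p = 9.26e-05) in KATO-III, -0.27 (adjusted p = 0.0895) in SNU-216 and 0.19 (adjusted p = 0.291) in SNU-601. RAB4A, also of fast recycling, rose in KATO-III and SNU-216, 0.64 (adjusted p = 0.000139) and 0.36 (adjusted p = 0.00512), and was 0.02 (adjusted p = 0.993) in SNU-601. RAB25, the epithelial member of the RAB11 family, fell in KATO-III and SNU-601. RAB25 measured 4982 and 4877 on the CD133+ and 6069 and 6215 on the CD133- arrays of KATO-III, 6341 and 6335 on the CD133+ and 6544 and 6974 on the CD133- arrays of SNU-216, and 8875 and 8890.5 on the CD133+ and 11074 and 10860.0 on the CD133- arrays of SNU-601. All CD133+ arrays lay below the CD133- arrays of their line. The log2 change was -0.32 (SE 0.04, adjusted p = 0.000303) in KATO-III, -0.09 (SE 0.04, adjusted p = 0.135) in SNU-216 and -0.30 (SE 0.04, adjusted p = 0.0017) in SNU-601. RAB11A, the widely expressed member, was -0.42 (adjusted p = 0.0409) in KATO-III, a call lost on leaving out any of 9 of the 12 arrays (adjusted p up to 0.286), and RAB11B was called in no line. RAB12, close to the floor, fell in KATO-III, -0.74 (adjusted p = 0.0155), and this call was lost without any 1 of the 4 KATO-III arrays (adjusted p up to 0.0773).

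Late endosomal RABs changed little. RAB7A, the main RAB of late endosomes and lysosomes, was -0.23 (adjusted p = 0.0162) in KATO-III and 0.27 (adjusted p = 0.00962) in SNU-216, opposite in direction, and RAB9A, which acts in retrieval from late endosomes to the trans-Golgi, was 0.25 (adjusted p = 0.0281) in SNU-216. All 3 calls were lost when some 1 array of the line was left out (adjusted p up to 0.107, 0.059 and 0.172). RAB7L1 was 0.32 (SE 0.08, adjusted p = 0.0355) in SNU-601, lost without any 1 of the 4 SNU-601 arrays (adjusted p up to 0.162), and -0.19 (adjusted p = 0.148) in SNU-216. RAB24, linked to autophagy, was called in no line.

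Among secretory RABs, RAB18, which acts at the endoplasmic reticulum and on lipid droplets, had the largest change in KATO-III and in SNU-601, in opposite directions. RAB18 measured 127 and 122 on the CD133+ and 45.8 and 37.7 on the CD133- arrays of KATO-III, between 15.4 and 27.4 (at the floor) on the 4 arrays of SNU-216, and 76.6 and 83.4 on the CD133+ and 147 and 157 on the CD133- arrays of SNU-601. The CD133+ arrays were the brighter ones in KATO-III and the dimmer ones in SNU-601, without overlap in either line. In log2 terms RAB18 changed by 1.58 (SE 0.13, adjusted p = 2.61e-05) in KATO-III and -0.92 (SE 0.13, adjusted p = 0.00221) in SNU-601, and the difference between lines had an adjusted p of 4.51e-05. Its KATO-III CD133- arrays lay close to the floor. SNU-216 shows no spread for RAB18, so these SEs and p-values tend to be too small. RAB6A, which acts in transport at the Golgi, rose in KATO-III and SNU-216. RAB6A measured 718 and 809 on the CD133+ and 404 and 400.2 on the CD133- arrays of KATO-III, 605 and 536 on the CD133+ and 324 and 239 on the CD133- arrays of SNU-216, and 382 and 478 on the CD133+ and 418 and 446 on the CD133- arrays of SNU-601. Fractions did not overlap in those lines and overlapped in SNU-601. Its log2 change was 0.92 (SE 0.15, adjusted p = 0.0014) in KATO-III, 1.03 (SE 0.15, adjusted p = 0.00118) in SNU-216 and -0.01 (SE 0.15, adjusted p = 1) in SNU-601, and over the lines together it missed the threshold, 0.65 (adjusted p = 0.0534). The probe sequences are not used here, so signal shared with close copies such as RAB6C, which was at the floor on 11 of the 12 arrays, was not tested.

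RAB1 and RAB2 genes, which act in transport between the endoplasmic reticulum and the Golgi, changed by small amounts. RAB1B measured 500.5 and 449.6 on the CD133+ and 415 and 398 on the CD133- arrays of KATO-III, 463 and 499 on the CD133+ and 516 and 505 on the CD133- arrays of SNU-216, and 556 and 554 on the CD133+ and 432 and 460.2 on the CD133- arrays of SNU-601. RAB1B was brighter in CD133+ cells of KATO-III and SNU-601 without overlap, and dimmer in SNU-216. The log2 change was 0.32 (SE 0.07, adjusted p = 0.0207) in SNU-601, 0.22 (adjusted p = 0.0408) in KATO-III and -0.09 (adjusted p = 0.474) in SNU-216. The SNU-601 call was lost without CD133+ replicate 1 or 2 or CD133- replicate 1 (adjusted p up to 0.102), and the KATO-III call without any of 7 of the 12 arrays (up to 0.179). RAB1A was 0.25 (adjusted p = 0.0226) in KATO-III and 0.25 (adjusted p = 0.0336) in SNU-216, calls that were also lost without some single arrays (adjusted p up to 0.144 and 0.193). RAB2A rose in KATO-III, 0.21 (adjusted p = 0.024), and fell in SNU-216, -0.36 (adjusted p = 0.00216). RAB2B did the reverse, with -0.13 (adjusted p = 0.03) and 0.28 (adjusted p = 0.00103). The KATO-III calls of both were lost without 1 of the KATO-III arrays (adjusted p up to 0.117 and 0.117), and the SNU-216 calls of both held in every omission.

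RABs of exocytosis included a gene that fell in every line. RAB3B, of regulated secretory vesicles, was the only secretory RAB called in the same direction in all 3 lines. RAB3B measured -2.26 and -12.6 on the CD133+ and 43.3 and 42.3 on the CD133- arrays of KATO-III, 361 and 369.7 on the CD133+ and 683 and 698 on the CD133- arrays of SNU-216, and 87.2 and 89.5 on the CD133+ and 141 and 147 on the CD133- arrays of SNU-601. The CD133+ arrays were below the CD133- arrays in each line, and in KATO-III the CD133+ arrays were at the floor. RAB3B changed on the log2 scale by -0.92 (SE 0.10, adjusted p = 0.000217) in SNU-216 and -0.71 (SE 0.10, adjusted p = 0.0021) in SNU-601. In KATO-III CD133- cells RAB3B was at least 1.31-fold higher than in CD133+ cells (adjusted p = 0.0131). None of these calls was lost when 1 array was left out, and the KATO-III call was lost with a floor of 100, which is above all its values there. RAB8A and RAB8B, which direct vesicles to the plasma membrane and the cilium, differed from each other. RAB8B measured 433 and 423 on the CD133+ and 327 and 271 on the CD133- arrays of KATO-III, 732 and 678 on the CD133+ and 425 and 430.0 on the CD133- arrays of SNU-216, and 406 and 267 on the CD133+ and 294 and 297 on the CD133- arrays of SNU-601. RAB8B was brighter in CD133+ cells without overlap in KATO-III and SNU-216, and the fractions overlapped in SNU-601. Log2 changes of RAB8B were 0.72 (SE 0.17, adjusted p = 0.0124) in SNU-216, 0.52 (adjusted p = 0.0374) in KATO-III and 0.15 (adjusted p = 0.66) in SNU-601. RAB8A was -0.33 (adjusted p = 0.00417) in KATO-III, -0.24 (adjusted p = 0.0265) in SNU-216 and 0.20 (adjusted p = 0.0735) in SNU-601. The RAB8B call in SNU-216 was lost without 3 of the SNU-216 arrays (adjusted p up to 0.0825), that in KATO-III without 10 of the 12 arrays (up to 0.217), and the RAB8A call in SNU-216 without 6 (up to 0.134).

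RAB27A, which docks secretory granules and lysosome-related organelles at the membrane, rose in SNU-216, 0.68 (adjusted p = 0.00603), at intensities of 95.5 and 113 against 61.9 and 67.9. RAB10, of exocytosis and basolateral transport, rose there by 0.23 (adjusted p = 0.0127), a call lost without CD133+ or CD133- replicate 2 (adjusted p up to 0.0831). RAB37, of secretory granules, was at the floor in KATO-III and SNU-216 and close to it in SNU-601, with 29.9 and 39.2 in CD133+ and 53.7 and 49.6 in CD133- cells. Its change of -0.53 (SE 0.11, adjusted p = 0.0141) rests on 1 CD133+ array above the floor and was lost without CD133+ or CD133- replicate 1 (adjusted p up to 0.0592). The lines at the floor show no spread for RAB37, so this SE and p-value tend to be too small.

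The RABs outside both routes held the gene that rose in every line. RAB23, which is known as a brake on hedgehog signalling and for a role in cilia, was called higher in CD133+ cells of all 3 lines. RAB23 measured 950.4 and 994 on the CD133+ and 632 and 589.5 on the CD133- arrays of KATO-III, 1441 and 1403 on the CD133+ and 1177 and 1181 on the CD133- arrays of SNU-216, and 1213 and 1324 on the CD133+ and 982 and 1105 on the CD133- arrays of SNU-601. Every CD133+ array was above the CD133- arrays of its line. RAB23 had log2 changes of 0.67 (SE 0.07, adjusted p = 9.77e-05) in KATO-III, 0.27 (SE 0.07, adjusted p = 0.0194) in SNU-216 and 0.28 (SE 0.07, adjusted p = 0.0267) in SNU-601. The SNU-216 call was lost without any 1 of the 4 SNU-216 arrays (adjusted p up to 0.0962) and the SNU-601 call without CD133+ replicate 2 or CD133- replicate 1 (up to 0.142). The SNU-601 call was also lost with the spread estimated from the 4 SNU-601 arrays alone. RAB38, with the values given above, rose by 0.90 (SE 0.08, adjusted p = 2.78e-05) in KATO-III and 0.35 (SE 0.08, adjusted p = 0.0146) in SNU-601, the latter lost without CD133+ replicate 2 or either CD133- array (adjusted p up to 0.0765). RAB28, of cilia, rose in KATO-III and SNU-216, 0.34 (adjusted p = 0.00366) and 0.71 (adjusted p = 0.000106), and was 0.03 (adjusted p = 0.907) in SNU-601. RAB40C, a relative of RAB40B, fell in KATO-III, -0.74 (adjusted p = 0.000135), where RAB40B rose, 0.37 (adjusted p = 0.0166). The RAB40B call was lost without any 1 of the 4 KATO-III arrays (adjusted p up to 0.0927). RAB32 was called in no line, with 0.10 (adjusted p = 0.255), 0.05 (adjusted p = 0.607) and values at the floor in SNU-601.

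Only RAB23 and RAB3B were called in all 3 lines, beside 4.97% of all genes tested, and both had the same direction in each, beside 1.06% of all genes. With the spread of the SNU-601 arrays alone, neither was called in that line. Opposite calls in at least 2 lines were found for 6 RAB genes, RAB18, RAB20, RAB5C, RAB7A, RAB2A and RAB2B, beside 10.9% of all genes. By limma's F-test of the interaction, 30 of the 48 RAB genes changed unequally between fractions in the 3 lines, beside 44.4% of all genes. Among them were 16 of 22 endocytic, 10 of 19 secretory and 4 of 7 other RABs.

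Fitted over the lines together with the line as a block, 5 RAB genes differed between CD133+ and CD133- cells, 1 higher and 4 lower (5 higher and 4 lower with each array centred on its median), beside 4.73% of all genes (2.62% higher and 2.11% lower), and 2 of them by at least 1.5-fold, beside 1.74%. The log2 change was 0.41 (SE 0.08, adjusted p = 0.0239) for RAB23, -0.67 (SE 0.11, adjusted p = 0.0124) for RAB3B, -0.24 (SE 0.05, adjusted p = 0.024) for RAB25, -0.79 (SE 0.17, adjusted p = 0.0308) for RAB17 and -0.57 (SE 0.13, adjusted p = 0.0349) for RAB42. RAB42 measured 26.5 and 12.8 on the CD133+ and 43.3 and 58.0 on the CD133- arrays of KATO-III, 53.0 and 37.7 on the CD133+ and 71.5 and 66.6 on the CD133- arrays of SNU-216, and 44.6 and 38.0 on the CD133+ and 68.4 and 47.3 on the CD133- arrays of SNU-601. RAB42, a little studied RAB, thus lay close to the floor everywhere and was called in no single line, although its CD133+ arrays were below its CD133- arrays in each. In KATO-III both CD133+ arrays of RAB42 and of RAB3B were at the floor, so their changes over the lines include a lower bound. Both arrays of a population enter this fit as independent samples. With the arrays of a population averaged first, or with the population as a random block, none of the 5 was called (adjusted p of 0.796 for each with averaging, and from 0.191 for RAB3B to 0.438 for RAB42 with the block). Averaging leaves 1 value for each of the 6 populations, so that fit had little power and does not decide on these genes. Leaving out 1 array kept the RAB3B call in all 12 omissions, the RAB23 and RAB25 calls in 8, without any 1 of the KATO-III arrays the exception (adjusted p up to 0.0644 and 0.0652), the RAB17 call in 4 (up to 0.0842) and the RAB42 call in 3 (up to 0.0871). The signal-to-noise ratio, the difference of the fraction means divided by the sum of their SDs over 6 arrays each, passed 1 or -1 for 0 RAB genes, beside 0.558% and 0.402% of all genes with values. The RAB genes ranged from -0.92 for RAB42 to 0.93 for RAB6A.

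**Figure D5:**
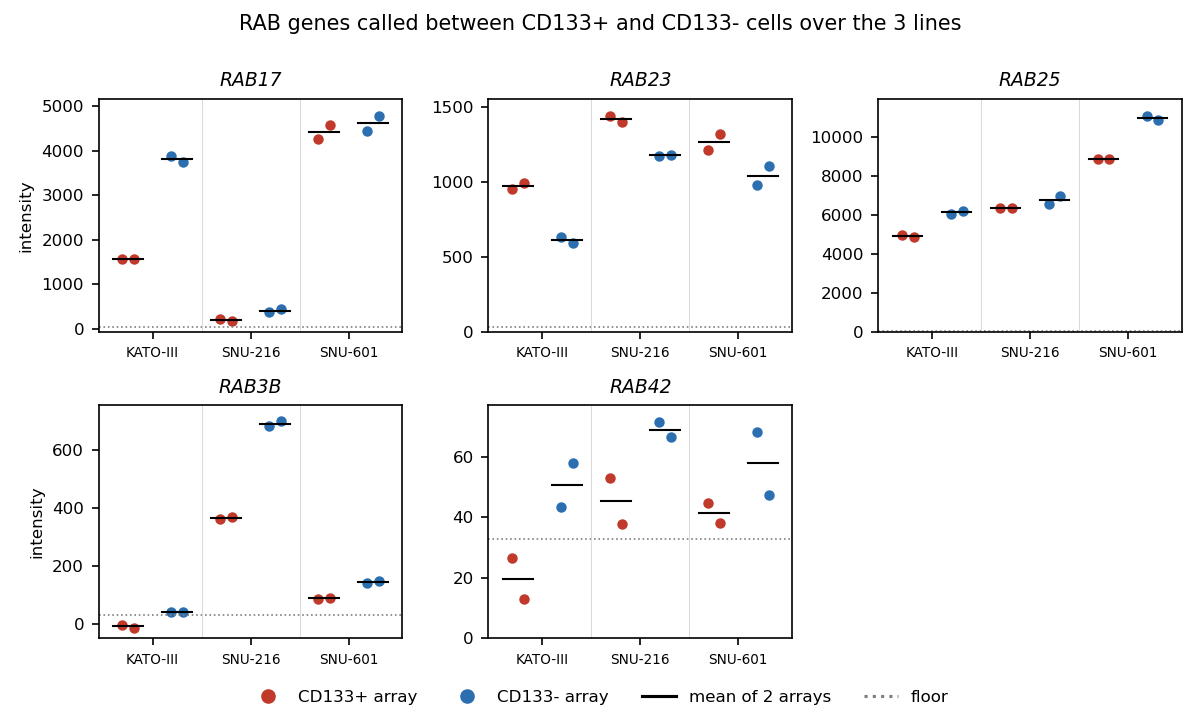
Intensity (linear axis, different for each gene) on each of the 12 arrays for the 5 RAB genes called over the lines together, with red points for CD133+ and blue points for CD133- arrays, black bars for the mean of 2 arrays, and a dotted line for the floor of 32.7. In every line RAB23 is brighter and RAB3B, RAB25 and RAB42 are dimmer on the CD133+ arrays, while RAB17 differs clearly in KATO-III and SNU-216 and overlaps in SNU-601.

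Proteins that load, release or read RABs were counted from listed genes, of which 113 have a row and 103 were tested. In KATO-III 42 were called (17 higher and 25 lower in CD133+ cells), in SNU-216 43 (22 and 21) and in SNU-601 21 (8 and 13), beside 39.3%, 28.6% and 16.4% of all genes tested, which compares with 40.8%, 41.7% and 20.4% of the 103. In the same direction in all 3 lines 0 were called by limma, beside 1.06% of all genes. Of 8 genes of RAB prenylation and recycling, 6, 5 and 1 were called in KATO-III, SNU-216 and SNU-601, of 26 exchange factors 7, 11 and 3, of 32 GTPase-activating proteins 13, 13 and 7, and of 37 effectors 16, 14 and 10. MLPH, the effector that links RAB27A to myosin Va on melanosomes, had the largest change in KATO-III. It measured 1577 and 1508 on the CD133+ and 5306 and 5478 on the CD133- arrays of KATO-III, a log2 change of -1.81 (SE 0.07, adjusted p = 4.45e-07), with -0.40 (adjusted p = 0.00192) in SNU-216 and -0.21 (adjusted p = 0.0687) in SNU-601. CHML, a RAB escort protein, was -1.67 (adjusted p = 0.00191) in KATO-III, with 1 CD133+ array at the floor, and TBC1D9, which has a RAB GTPase-activating domain, was 1.48 (adjusted p = 0.000126). In SNU-216, DENND2A, an exchange factor for RAB9, measured 211 and 214 in CD133+ and 1144 and 1186 in CD133- cells, a log2 change of -2.46 (SE 0.11, adjusted p = 2.34e-06), and was at the floor in the other lines. TBC1D17, a GTPase-activating protein, was -1.51 (adjusted p = 0.00408) and MYO5A, the myosin Va motor, 1.43 (adjusted p = 9.52e-05) in SNU-216. MYO5A, like DENND2A, was at the floor in the other lines, so the p-values of both tend to be too small. In SNU-601, MYO5B, the motor that binds RAB11 family members, was -1.14 (adjusted p = 0.0033), RPH3A, an effector of RAB3, -0.89 (adjusted p = 0.0209), and TBC1D20, which acts on RAB1, -0.68 (adjusted p = 0.000894). RPH3A lay near the floor there, with 38.6 and 39.2 in CD133+ and 59.3 and 87.5 in CD133- cells. Over the lines together 2 of the 103 were called (1.94%, beside 4.73% of all genes), TBC1D9 at 0.89 (adjusted p = 0.0403), which was at the floor on all 4 SNU-601 arrays and so could not vary there, and SYTL2, a RAB27 effector, at -0.57 (adjusted p = 0.0445). SYTL2 was not called in SNU-216, where it lay near the floor, from 41.3 to 47.9. That fit takes both arrays of a population as independent. Whether these 2 calls hold with arrays averaged or with a block was not examined.

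The 15 RAB genes that were not tested were RAB1C, RAB3C, RAB6B, RAB6C, RAB9B, RAB9P1, RAB14, RAB19, RAB27B, RAB33A, RAB33B, RAB34, RAB39, RAB39B and RAB40A. Their highest value was 39.7, for RAB14 on 1 array of SNU-216 CD133+ cells. A row at the floor says that this platform measured no signal above background, which a dim probe would also give. RAB3A, RAB3D, RAB41, RAB43 and RAB11B were tested at low intensity and were called in no comparison of fractions. RAB13, RAB4B, RAB26, RAB24, RAB30, RAB31, RAB36 and RAB7B were likewise called in no comparison of fractions, although each differed between at least 1 pair of lines. RAB43 and RAB11B also differed between at least 1 pair of lines.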

How the data were processed

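Gene expression of the 12 arrays was taken from the deposited value table, which holds intensities on a linear scale with 1 row per gene symbol. Per the methods of the study, the authors quantile-normalized these intensities, and the submitters' processing notes name BeadStudio without a version. A background was subtracted, as 32.1% of the deposited intensities are at or below 0. The way a gene's probes were merged is not given in the sources used here. Of the 34688 rows, 93 are empty on every array. Intensities under 32.7, which is the 1st percentile without its sign, were raised to that floor before log2 was taken, so fold changes of dim genes are understated. Genes that exceeded the floor on 2 or more arrays (20147, or 58.2%) entered limma 3.58.1 (R 4.3.3), fitted with 6 population means (6 residual degrees of freedom) or with line as a block (8), a mean-variance trend, and Benjamini-Hochberg adjustment over all genes tested at 0.05. A second rule asked for 1.5-fold as well. A fold against a population at the floor is a lower bound. Its SE and p-value tend to be too small, since values set to the floor show no spread. The number of arrays, 2 per population, limits the precision. The fits were tested on simulated data.

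The members and gene lists were chosen with earlier results of these data known, and the floor was set after the values were seen. Roles were assigned from general knowledge, 1 per gene. Array values are given for RAB genes called over the lines or in the same direction in all 3 lines, the 5 largest called changes of each line, the 5 largest differences between lines, and the 3 smallest p of the interaction. Other RAB genes were named with their tests, and listed partner genes where called over the lines or among the 3 largest changes of a line. Alternatives covered the floor (16, 100, or an offset of 100), the filter, the normalization (centring on the median, a further quantile step), the trend, the replicate number or population as a block, averaging of arrays, the arrays fitted, and leaving out each array. Motifs were searched and figures drawn in Python 3.11.15 with pandas 2.3.3, numpy 2.4.6 and matplotlib 3.10.9.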

Additional observations from a re-analysis of the deposited data

Results flagged for a closer look

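The change between CD133+ and CD133- cells differed between the 3 lines for 30 of the 48 RAB genes tested, beside 44.4% of all genes, by limma's F-test of the interaction with Benjamini-Hochberg adjustment over all genes tested (adjusted p in brackets), and these are the results given here. The endocytic ones were RAB11A (0.0482), RAB12 (0.0139), RAB15 (0.00019), RAB17 (0.000673), RAB20 (0.000364), RAB21 (0.00359), RAB22A (0.00517), RAB25 (0.0177), RAB35 (0.000674), RAB4A (0.00312), RAB5A (0.0249), RAB5B (0.000163), RAB5C (0.000674), RAB7A (0.00356), RAB7L1 (0.0213) and RAB9A (0.0181). The secretory ones were RAB10 (0.0261), RAB18 (4.51e-05), RAB1A (0.0432), RAB1B (0.0267), RAB2A (0.00115), RAB2B (0.0013), RAB37 (0.0341), RAB3B (0.0343), RAB6A (0.00705) and RAB8A (0.00345). The others were RAB23 (0.0146), RAB28 (0.00129), RAB38 (0.000535) and RAB40C (0.000905). For RAB18, RAB20, RAB5C, RAB7A, RAB2A and RAB2B the calls within lines ran in opposite directions. RAB15 and RAB38 were at the floor in 1 line, RAB7L1 and RAB18 likewise, and RAB37 in 2, so there the test compares a measured change with values that cannot vary. RAB23 and RAB3B, called in the same direction in all 3 lines, are also among the 30. For RAB3B the KATO-III change is only a lower bound, as both CD133+ arrays were at the floor, so the test does not show that its size differed between the lines.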

How the results depend on the processing

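The numbered replicates showed no sign of pairing across fractions, since deviations of same-numbered arrays from their population means correlated at 0.0261 in KATO-III, 0.0129 in SNU-216 and -0.00648 in SNU-601. Whether same-numbered arrays were handled together is not stated, and these correlations cannot decide it. With the replicate number within each line as a block, the comparison over the lines gave 0 higher and 0 lower RAB genes and SNU-601 1 higher. Fitted on the arrays of the groups compared alone, SNU-216 gave 7 higher and 3 lower and SNU-601 0 and 0. Testing only genes above the floor on all 12 arrays gave 1 lower in SNU-601, 9 higher in KATO-III against SNU-601, 9 higher in SNU-216 against SNU-601, and 5 higher over the lines. Over the lines, 2 were higher with a floor of 16, with a floor of 100 and without the filter on dim genes, 4 with an offset of 100 in place of the floor, 5 with arrays centred on their median, and 0 higher and 0 lower with arrays averaged first or the population as a random block. With 1 array left out, KATO-III had 11 to 14 higher and 8 to 12 lower, SNU-216 9 to 13 and 4 to 6, SNU-601 0 to 5 and 3 to 4, the interaction 23 to 30, and the comparison over the lines 0 to 2 higher and 1 to 4 lower. KATO-III against SNU-216 had 19 to 21 and 18 to 20, KATO-III against SNU-601 13 to 14 and 22 to 23, SNU-216 against SNU-601 14 to 15 and 23 to 25, and 0 to 1 RAB genes passed a signal-to-noise ratio of 1 and 0 to 2 one of -1. Of 174 single RAB calls, none changed direction under any alternative tried, and 146 of 2088 refits with 1 array left out lost the call. The cause of these changes was not tested. Dim genes near the floor are the least precise.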
